A study of Mus musculus with 12 samples.

Results

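The genes described here are heat shock factor 1 (Hsf1) and 9 cytosolic chaperone genes: Hsp90aa1, Hsp90ab1, Hspa8, Hspa4, Hspa14, Hsph1, Dnaja1, Dnajb1 and Stip1. They were chosen by symbol, with earlier results of these data known, and are 10 of the 24982 genes listed for each library. All 10 passed the filter on low coverage in every comparison. HSF1 is the transcription factor that turns on chaperone genes when proteins unfold; it binds heat shock elements, inverted repeats of the bases GAA, near its target genes. HSP90 and HSP70 proteins use ATP to fold and hold client proteins, J-domain proteins bring clients to HSP70, HSP110 proteins exchange its nucleotide, and the scaffold STIP1 links HSP70 to HSP90. In dividing B cells these chaperones handle new proteins and kinase and transcription factor clients, and some of their genes are expressed without stress while others are strongly induced by heat.

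The 12 libraries were polyadenylated RNA of B lymphocytes purified from mouse spleens at 6 weeks of age, in 3 groups of 4. WT mice carried neither change, Eμ-Myc mice carried a Myc transgene, and the third group, named Eμ-Myc; PRPS2 KO in the labels and called the knockout here, carried the transgene and lacked PRPS2. The Eμ-Myc transgene is driven by the immunoglobulin heavy-chain enhancer, so that Myc is raised in the B lineage, and mice that carry it develop B-cell lymphoma. PRPS2 belongs to the synthetases that supply phosphoribosyl pyrophosphate for making nucleotides, and the title of the study concerns how this activity bears on redox balance in MYC-driven lymphoma. The knockout and Eμ-Myc groups share the transgene, so they differ by label in PRPS2 alone, and the design has no PRPS2 knockout without the transgene. Strain, sex, the stage of disease and the way PRPS2 was removed are not given in the sources used here. The labels call the libraries biological replicates without naming the animals, so the p-values measure the spread between these libraries.

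Values are coverage per gene after scaling between libraries, called coverage from here on, and levels are compared between libraries and not between genes. Whether the deposited values are divided by gene length is not given in the sources used here. The targeted gene followed the labels: Prps2 was 16.4 to 18.4 in the knockout libraries, 192 to 288 in Eμ-Myc and 101 to 143 in WT. Myc coverage was 231 to 352 in WT, 1508 to 2262 in Eμ-Myc, and 1107, 1661, 3048 and 3318 in knockout libraries 1 to 4. All 7 B-cell markers were present in every library, with a summed coverage of 6099 to 11770 in WT, 6783 to 8274 in Eμ-Myc and 6396 to 6791 in the knockout. Libraries stood apart within groups. Knockout libraries 1 and 2 held T-cell marker sums of 448 and 454 and myeloid sums of 15687 and 11232, against 10.99 and 10.54, and 3117 and 1449.7 in knockout libraries 3 and 4. WT libraries 1 and 4 held T-cell sums of 663 and 1973, NK-cell sums of 751 and 1056, myeloid sums of 25413 and 14810 and B-cell sums of 6333 and 6099. WT libraries 2 and 3 held T-cell sums of 364 and 478, NK-cell sums of 267 and 303, myeloid sums of 8487 and 8580 and B-cell sums of 11770 and 10126. The lists had 7 T-cell, 5 NK-cell and 7 myeloid genes, none of them at 0 in a library. In bulk RNA, fewer cells of a type and less RNA per cell cannot be told apart.

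RefSeq promoter windows (GRCm38.p6, the assembly also called mm10, 250 bases before to 50 after a transcript start) were at hand for 6 of the 10 genes. They were searched for the heat shock element as GAANNTTC or TTCNNGAA, each its own reverse complement, so 1 search covers both strands; the motifs can overlap. Of 32851 windows of 300 bases genome-wide, 15.1% held either form, and 17.0% of the 27025 genes held one in at least 1 window. The 6 genes had 10 windows, 3 of which held an element: both windows of Hsph1 and the first of 3 windows of Dnaja1. The other 2 windows of Dnaja1 and those of Hspa4, Hspa14, Dnajb1 and Stip1 did not hold these letters. The stretches are shown because Hsph1 rose in the Eμ-Myc cells and Dnaja1 was not called; capitals mark the element. The first Hsph1 stretch is chr5:149636351-149636380 on the minus strand, 44 to 15 bases before the start, the second chr5:149636287-149636316, bases 21 to 50 after it, where 2 elements overlap in 1 run of capitals, and the Dnaja1 stretch is chr4:40722218-40722467 on the plus strand, the 250 bases before the first of its starts. RefSeq gives 2 Hsph1 windows, and these positions count from the start of the first. From the start of the second, the first element begins at base -54 in place of -33. The annotated 5′ end of Hsph1 lies upstream of both stretches, so both can lie within a longer transcript.
Hsph1 before the start: gggtagaatctTTCTCGAAggctcgagaag
Hsph1 after the start: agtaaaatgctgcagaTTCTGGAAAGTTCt
Dnaja1 before the start: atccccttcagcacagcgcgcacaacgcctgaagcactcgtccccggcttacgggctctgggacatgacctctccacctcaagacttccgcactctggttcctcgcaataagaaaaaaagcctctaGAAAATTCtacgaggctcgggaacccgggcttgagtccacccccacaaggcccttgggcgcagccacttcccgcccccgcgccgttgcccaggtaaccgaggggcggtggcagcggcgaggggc
The Hsph1 window also held CACGTG, the E-box letters that MYC with MAX can bind, from base 3 counted from the first start and base -19 counted from the second. CACGTG occurred in 7.2% of all windows and in none of the other 5 genes' windows. A match is a description of the letters and does not show binding.

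Hsf1 itself (chr15:76477362-76501155) was not called in any of the 3 comparisons. Hsf1 coverage was 305, 315, 276 and 379 in WT libraries 1 to 4, 337, 399, 318 and 341 in Eμ-Myc and 326, 358, 438 and 458 in the knockout. The WT and Eμ-Myc values interleaved, and knockout libraries 3 and 4 were the highest of all 12. The group means were 318 ± 43.4, 349 ± 35.2 and 395 ± 63.3 (SD, n = 4 each). In Eμ-Myc against WT the log2 fold change was 0.14 (SE 0.12, adjusted p 0.363) in limma, with a 95% confidence interval of -0.14 to 0.41. Other settings changed its call in the knockout. With library quality weights Hsf1 was 0.45 against Eμ-Myc (adjusted p 0.00123) and 0.57 against WT (adjusted p 1.44e-04). Without knockout libraries 1 and 2 it was 0.50 against WT (adjusted p 0.0131).

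In the Eμ-Myc cells, 7 of the 10 genes rose and none fell: both HSP90 genes, Stip1, Hspa8, Hspa14, Hspa4 and Hsph1. Over all 12704 genes tested in this comparison, 55.7% were called in either direction and 28.3% were called higher. The Eμ-Myc and WT libraries did not overlap for 6 of the 10, against 52.2% of all genes. The median log2 fold change was 0.83 over the 10 genes and -0.06 over all genes. Marker sums of other cell types moved with this comparison. Eμ-Myc libraries held T-cell sums of 76.7 to 108, against 364 to 1973 in WT, NK-cell sums of 71.6 to 169 against 267 to 1056, and stromal sums of 258 to 309 against 362 to 580. Plasma-cell sums were 777 to 1094 against 440 to 706, and none of these 4 ranges overlapped. Myeloid sums did overlap, at 5809 to 16342 against 8487 to 25413. The part of these in the chaperone rises was not tested. The rises ran from 1.68-fold for Hspa8 to 2.72-fold for Hsp90aa1, on the scale of log2(coverage + 0.5). Because the authors' handling of reads shared between copies is not given in the sources used here, the levels of Hsp90aa1, Hsp90ab1 and Hspa8, which have processed pseudogenes, are uncertain to that extent.

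**Figure D1:**
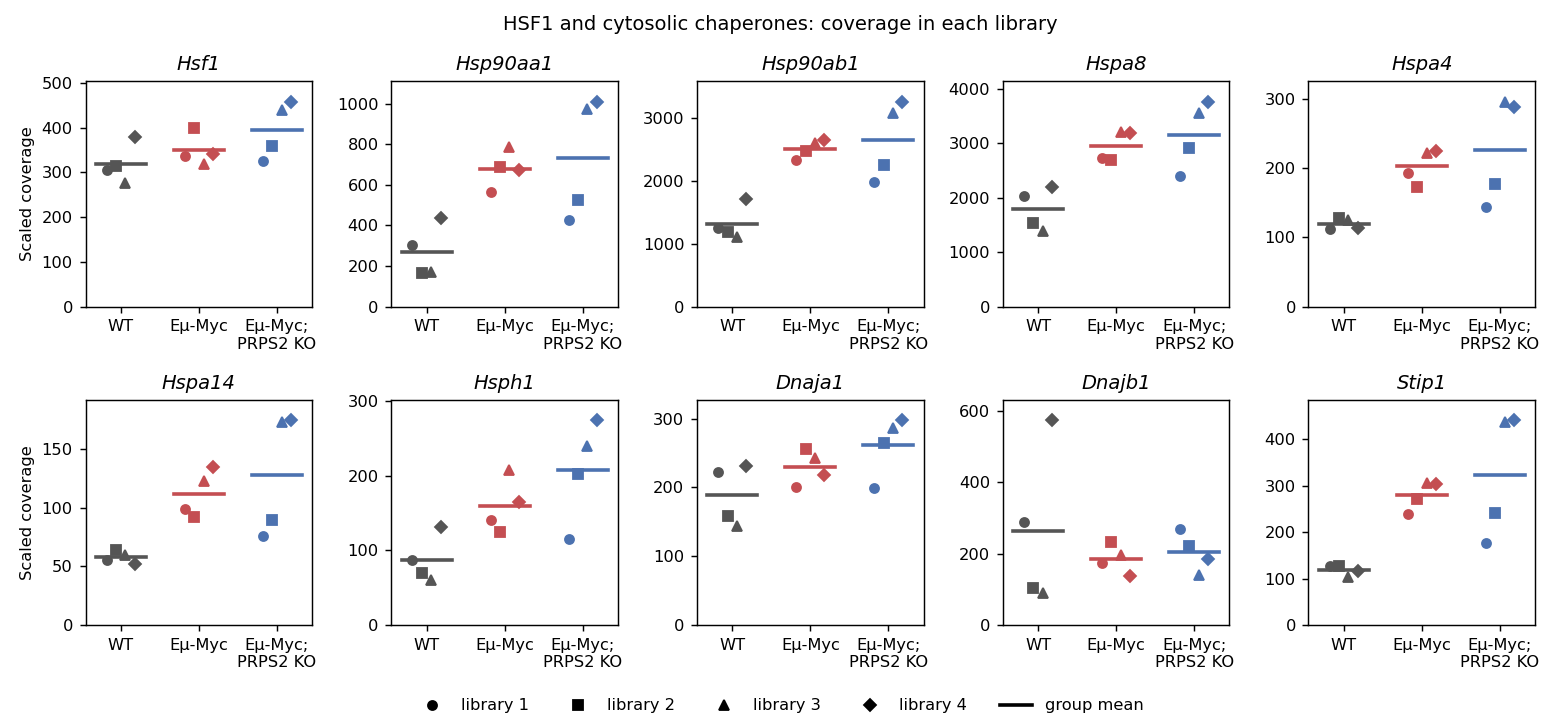
Scaled coverage (vertical axis, linear from 0) of Hsf1 and the 9 chaperone genes in each of the 12 libraries; marker shapes give the library number, horizontal lines the mean of 4 libraries. Eμ-Myc points lie above all WT points for Hsp90aa1, Hsp90ab1, Hspa8, Hspa4, Hspa14 and Stip1, and knockout libraries 3 and 4 lie above all Eμ-Myc libraries for every gene but Dnajb1.

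The HSP90 genes encode the 2 cytosolic HSP90 proteins, Hsp90aa1 (chr12:110691036-110696395) the heat-inducible form and Hsp90ab1 (chr17:45567778-45573261) the constitutive one. Hsp90aa1 was 304, 165, 169.9 and 437 in WT libraries 1 to 4, 564, 688, 789 and 673 in Eμ-Myc and 429, 525, 976 and 1012 in the knockout. Every Eμ-Myc library was above every WT library, and WT libraries 1 and 4 were above WT libraries 2 and 3. The log2 fold change of Hsp90aa1 in Eμ-Myc against WT was 1.44 (SE 0.30, adjusted p 0.00321). It was 2.00 (adjusted p 3.70e-05) without WT libraries 1 and 4 and 0.89 (adjusted p 0.00674) without WT libraries 2 and 3. Hsp90ab1 was 1251, 1185, 1110.2 and 1718 in WT libraries 1 to 4, 2325, 2469, 2607 and 2656 in Eμ-Myc and 1974, 2249, 3085 and 3263 in the knockout. The Eμ-Myc libraries kept within a narrow range, all above WT. Hsp90ab1 was 1.94-fold higher, a log2 fold change of 0.95 (SE 0.14, adjusted p 3.89e-04).

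Stip1 (chr19:7020696-7040026), whose protein holds HSP70 and HSP90 together while a client passes between them, had the smallest p of the 10. Stip1 was 126, 127, 103 and 116 in WT libraries 1 to 4, 239.6, 271, 305 and 304 in Eμ-Myc and 176, 242, 436 and 441 in the knockout. The WT libraries lay close together and WT libraries 1 and 4 did not stand apart here. The log2 fold change was 1.24 (SE 0.12, adjusted p 2.96e-05), or 2.36-fold, and it kept its direction and its call under each of the 19 alternatives run, between 1.11 and 1.37.

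Of the HSP70 genes, Hspa8 (chr9:40801276-40805202) encodes the constitutive HSC70 and Hspa14 (chr2:3488854-3512814) a ribosome-associated HSP70. Hspa8 was 2027, 1529.7, 1384 and 2202 in WT libraries 1 to 4, 2727, 2689, 3200.5 and 3196 in Eμ-Myc and 2397, 2907, 3562 and 3769 in the knockout. The highest WT library was below the lowest Eμ-Myc library, and the log2 fold change was 0.75 (SE 0.16, adjusted p 0.00324). Hspa14 was 55.4, 63.6, 59.9 and 51.8 in WT libraries 1 to 4, 98.5, 91.9, 122 and 135 in Eμ-Myc and 75.6, 89.4, 173 and 175 in the knockout. WT libraries were again closely grouped for Hspa14. Its log2 fold change was 0.94 (SE 0.14, adjusted p 4.21e-04).

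Hspa4 (chr11:53259814-53300479) and Hsph1 (chr5:149616843-149636498) encode HSP110 proteins, the nucleotide exchange factors of HSP70. Hspa4 was 112, 127, 125 and 113 in WT libraries 1 to 4, 193, 173, 222 and 225 in Eμ-Myc and 145, 177, 296 and 289 in the knockout. Hspa4 had one of the smaller spreads of the WT libraries, and its log2 fold change was 0.76 (SE 0.11, adjusted p 3.90e-04). Hsph1 was 86.9, 70.2, 60.4 and 131 in WT libraries 1 to 4, 140.0, 124, 208 and 164 in Eμ-Myc and 115, 202, 240.0 and 274 in the knockout. For Hsph1 the highest WT library, number 4, was above the lowest Eμ-Myc library, number 2, so the groups overlapped. Its log2 fold change was 0.90 (SE 0.24, adjusted p 0.0117). Without WT libraries 2 and 3 it was 0.55 and no longer called (adjusted p 0.0900), and without WT libraries 1 and 4 it was 1.26 (adjusted p 0.00142).

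The J-domain genes, whose proteins deliver clients to HSP70, were not called. Dnaja1 was 222, 158, 145 and 231 in WT libraries 1 to 4, 201, 256, 243 and 218 in Eμ-Myc and 199, 265, 287 and 298 in the knockout. The WT libraries 1 and 4 lay among the Eμ-Myc values for Dnaja1 (chr4:40722468-40734965), and WT libraries 2 and 3 lay below them. The log2 fold change was 0.31 (SE 0.17, adjusted p 0.145), with an interval of -0.07 to 0.68, and with quality weights it was 0.53 and called (adjusted p 0.00284). Dnajb1 was 288, 104, 89.4 and 574 in WT libraries 1 to 4, 173, 234, 196 and 136 in Eμ-Myc and 269, 221, 140.0 and 185 in the knockout. Dnajb1 (chr8:83608175-83612653), a heat-inducible gene, had its highest and its lowest values of all 12 libraries within WT. The log2 fold change was -0.13 (SE 0.55, adjusted p 0.853) and its interval ran from -1.37 to 1.11. Without WT libraries 1 and 4 it was 0.91 (adjusted p 0.00715), called higher, and Dnaja1 was 0.59 (adjusted p 0.00717), also called higher. Without WT libraries 2 and 3 Dnajb1 was -1.16 (adjusted p 0.0166), called lower. These pairs of libraries were chosen after their values were seen, so the last 3 values describe how the WT libraries differ.

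Heat-inducible genes held the 2 largest differences between WT libraries. Hspa1a and Hspa1b, which encode the inducible HSP70, and Hspb1, which encodes the small heat shock protein HSP27, are textbook HSF1 targets. Hspa1a was 356, 0.853, 1.16 and 579 in WT libraries 1 to 4, 217, 280.3, 193 and 122 in Eμ-Myc and 304, 192, 60.2 and 51.6 in the knockout. WT libraries 2 and 3 were at 0.853 and 1.16, while WT library 4 held the highest value of the 12. Hspa1b was 535, 2.27, 3.95 and 913 in WT libraries 1 to 4, 390.3, 470.3, 304 and 205 in Eμ-Myc and 516, 314, 137 and 127 in the knockout. Hspb1 was 12.7, 0.379, 0.289 and 23.9 in WT libraries 1 to 4, 17.0, 39.8, 17.5 and 14.0 in Eμ-Myc and 15.3, 10.8, 38.7 and 36.1 in the knockout. The same 2 WT libraries were low in all 3 genes, and in Hspb1 knockout libraries 3 and 4 were among the highest, while in Hspa1a and Hspa1b they were the lowest of the knockout group.

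Among the 9930 genes with a mean WT coverage of at least 8, Hspa1a had the largest log2 range between WT libraries, 8.74, Hspa1b the second, 8.36, and Hspb1 ranked 10, with 4.95. Dnajb1 ranked 182, with a range of 2.68, and the median over all genes was 0.42. The ranges of Hsp90aa1 and Hsph1 were 1.40 and 1.11, and that of Hspa4 was 0.19. Dnajb1, Hsp90aa1 and Hsph1 had the largest WT ranges of the 10 genes. WT libraries 1 and 4 were also the pair with lower B-cell and higher T-cell, NK-cell and myeloid marker sums given above, and the part of these in the heat-inducible levels was not tested. The Eμ-Myc against WT log2 fold changes were 2.90 (SE 1.99, adjusted p 0.240) for Hspa1a, 2.72 (SE 1.85, adjusted p 0.235) for Hspa1b and 2.42 (SE 1.11, adjusted p 0.0920) for Hspb1, none of them called. They change with the WT pair used. Without WT libraries 1 and 4, Hspa1a was 7.02 (adjusted p 8.85e-06) and Hspa1b 6.54 (adjusted p 1.16e-05), both called higher. Without WT libraries 2 and 3 they were -1.22 (adjusted p 0.0216) and -1.09 (adjusted p 0.0384), both called lower. Hspb1 was 4.64 and called (adjusted p 5.99e-05) in the first case and 0.20 and not called (adjusted p 0.721) in the second. Bag3, a co-chaperone gene also induced by heat, was 9.84, 5.78, 5.88 and 8.65 in WT and 4.41, 4.75, 6.36 and 2.38 in Eμ-Myc, a log2 fold change of -0.72 (SE 0.29, adjusted p 0.0580). Bag3 was called lower when scaled by the sum of coverage (-0.84, adjusted p 0.0331), in 1 fit of all 12 libraries (adjusted p 0.0492), and without Eμ-Myc library 3 (-0.90, adjusted p 0.0346). It was also called lower without WT libraries 2 and 3 (-1.03, adjusted p 0.0374) but not without WT libraries 1 and 4 (-0.41, adjusted p 0.315).

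**Figure D2:**
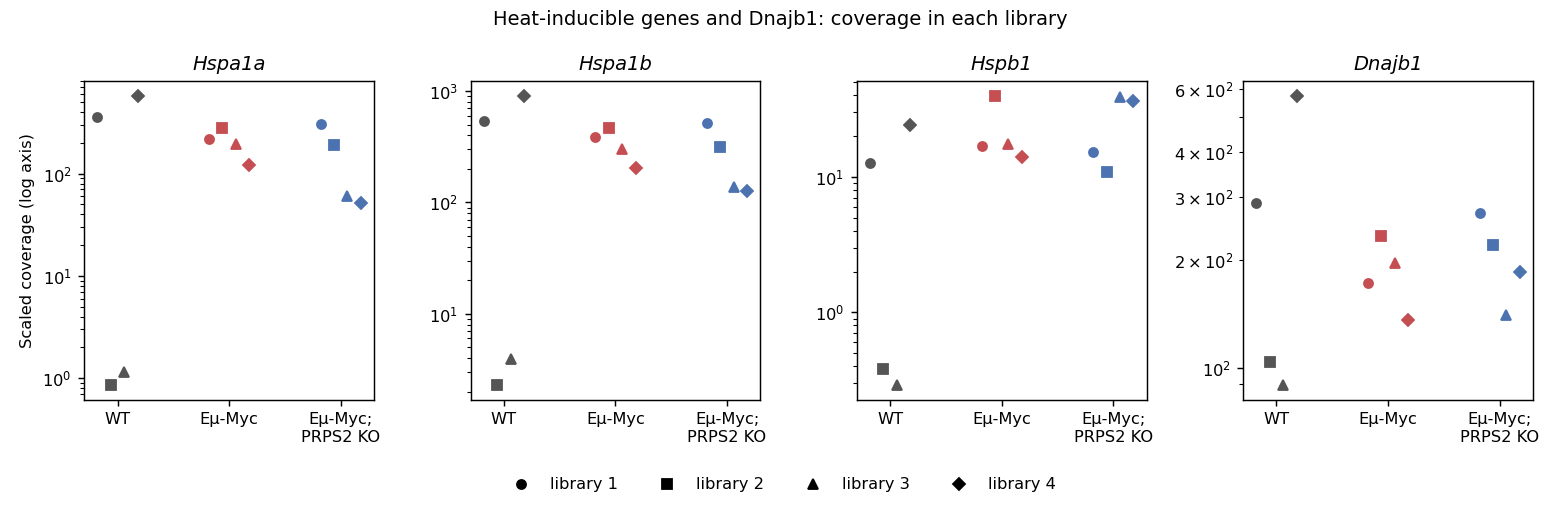
Scaled coverage on a log axis of Hspa1a, Hspa1b, Hspb1 and Dnajb1 in each library, with marker shapes for the library number. WT libraries 1 and 4 lie far above WT libraries 2 and 3 in all 4 panels, and the Eμ-Myc libraries lie above WT libraries 2 and 3 in each.

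The bases before the start of these genes are shown beside those of Dnaja1 because they hold the same kind of element. Of the 14 heat-inducible genes searched, 12 had a window and 7 of them held a heat shock element, in 7 of their 17 windows. The Hspa1a stretch is chr17:34972157-34972406 and the Hspa1b stretch chr17:34959239-34959488, both on the minus strand, and the Hspb1 stretch is chr5:135887669-135887918 on the plus strand. Each is the 250 bases before the start, with elements in capitals. Bases just after the start of Hspa1a, Hspa1b and Hspb1 were found in an annotated transcript. Whether the printed bases, which lie before the start, are transcribed was not tested.
Hspa1a: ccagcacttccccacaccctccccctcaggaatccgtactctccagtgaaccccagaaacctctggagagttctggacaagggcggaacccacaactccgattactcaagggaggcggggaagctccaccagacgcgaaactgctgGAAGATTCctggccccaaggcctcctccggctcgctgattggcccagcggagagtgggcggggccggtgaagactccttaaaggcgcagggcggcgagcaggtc
Hspa1b: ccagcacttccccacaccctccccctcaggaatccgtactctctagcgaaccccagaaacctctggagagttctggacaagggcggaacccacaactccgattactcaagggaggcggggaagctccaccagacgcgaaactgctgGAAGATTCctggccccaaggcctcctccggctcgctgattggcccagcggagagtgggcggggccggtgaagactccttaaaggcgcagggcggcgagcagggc
Hspb1: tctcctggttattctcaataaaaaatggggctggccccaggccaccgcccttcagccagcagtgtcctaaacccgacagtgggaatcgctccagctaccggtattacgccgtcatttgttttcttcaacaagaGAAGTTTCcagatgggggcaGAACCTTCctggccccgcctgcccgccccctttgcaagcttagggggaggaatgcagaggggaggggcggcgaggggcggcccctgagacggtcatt
Both Hspa1 genes held the element from base -104, and Hspb1 held 2 elements, from bases -117 and -97. Hspa1a and Hspa1b were the same at 247 of the 250 positions. These are near-identical paralogs, and how the authors assigned shared reads is not given in the sources used here, so the split of coverage between them is uncertain.

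Loss of PRPS2 in Eμ-Myc cells gave no called difference in the 10 genes. In the knockout against Eμ-Myc, 0 of 10 were called by limma, and 0 had an unadjusted p under 0.05. Of the 12559 genes tested, 0.00796% were called, Prps2 being the single gene, and 120 genes had p under 0.05 before adjustment. This count of 120 is below what chance alone gives at that threshold. The lack of small p-values here therefore does not show a lack of change. The knockout and Eμ-Myc libraries overlapped for all 10 genes, and the groups did not overlap for 1.75% of all genes. The log2 fold changes ran from 0.03 for Hsp90aa1 to 0.34 for Hsph1, all with an adjusted p of 1.00. Leaving out 1 library gave 0.18 (without knockout library 4) to 0.60 (without knockout library 1) for Hsph1. The intervals were wide: -0.32 to 1.00 for Hsph1, -0.59 to 0.81 for Stip1, -0.37 to 0.45 for Hsp90ab1 and -0.17 to 0.52 for Hsf1. For Hspa1a and Hspa1b the log2 fold changes were -0.74 and -0.51, each with an adjusted p of 1.00. Both were called lower with library quality weights (-1.68, adjusted p 0.00112, and -1.14, adjusted p 0.00196). Both were also called lower when knockout libraries 1 and 2 were left out (-1.79, adjusted p 0.00586, and -1.31, adjusted p 0.0161). When libraries 3 and 4 were left out instead, they were 0.31 and 0.30 and not called. Leaving out 1 library gave -1.20 to -0.35 for Hspa1a and -0.89 to -0.22 for Hspa1b, in each case from knockout library 1 left out to knockout library 4 left out.

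The spread lay within the knockout group. Knockout libraries 3 and 4 were both above all 4 Eμ-Myc libraries in 9 of the 10 genes, all but Dnajb1, and so were 35.8% of all genes tested. Knockout library 1 was below all Eμ-Myc libraries in 8 of the 10 genes, all but Hsf1 and Dnajb1, as were 34.3% of all genes. Knockout library 2 was below them in 3 of the 10 (31.7% of all genes) and above them in 1 (27.0%). Both knockout libraries 1 and 2 were below in 3 of the 10, against 25.9% of all genes. Stip1 shows the spread: 176, 242, 436 and 441 in knockout libraries 1 to 4, around Eμ-Myc values of 239.6 to 305. Myc coverage was also lower in knockout libraries 1 and 2, at 1107 and 1661, than in 3 and 4, at 3048 and 3318. NK-cell marker sums were 408 and 291 in knockout libraries 1 and 2 and 18.2 and 17.3 in 3 and 4, beside the T-cell and myeloid sums given above. The part of these in the chaperone levels was not tested. Without knockout libraries 1 and 2, 6 of the 10 genes were called higher than in Eμ-Myc (Hsp90aa1, Hsp90ab1, Hspa4, Hspa14, Hsph1 and Stip1) and 3760 genes were called in all. Without knockout libraries 3 and 4, 0 of 10 and 541 genes were called, and the log2 fold change of Stip1 was -0.43. With library quality weights in limma, 9 of the 10 were called, and 7698 genes in all. The counts over all genes take in both directions, and 12559 genes were tested with all libraries kept.

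Against WT, the knockout cells had the same 7 genes higher as the Eμ-Myc cells. Both comparisons share the WT libraries, so they are not independent. Marker sums differed here too. Platelet sums were 30.9 to 127 in the knockout against 76.4 to 380 in WT, stromal sums 156 to 391 against 362 to 580, T-cell sums 10.54 to 454 against 364 to 1973, and NK-cell sums 17.3 to 408 against 267 to 1056. Myeloid sums were 1449.7 to 15687 against 8487 to 25413 and plasma-cell sums 628 to 818 against 440 to 706. Each of these ranges overlapped, and their part in the chaperone levels was not tested. Of 12710 genes tested, 29.4% were called in either direction and 17.6% were called higher, and the groups did not overlap for 38.1% of genes and for 5 of the 10. The log2 fold change was 1.47 (SE 0.41, adjusted p 0.0363) for Hsp90aa1, 1.00 (SE 0.21, adjusted p 0.0209) for Hsp90ab1 and 1.35 (SE 0.30, adjusted p 0.0235) for Stip1. It was 0.83 (SE 0.20, adjusted p 0.0289) for Hspa8, 1.05 (SE 0.29, adjusted p 0.0361) for Hspa14, 0.86 (SE 0.24, adjusted p 0.0377) for Hspa4 and 1.24 (SE 0.33, adjusted p 0.0328) for Hsph1. Knockout and WT libraries overlapped in Hsp90aa1, through knockout library 1 at 429 and WT library 4 at 437, and in Hsph1, through 115 and 131 in the same libraries. Hsf1 (0.31, adjusted p 0.147), Dnaja1 (0.49, adjusted p 0.0919) and Dnajb1 (-0.0015, adjusted p 0.998) were not called. The calls changed with the libraries used. Of the 10 genes, 0 passed the threshold without WT library 1, 2 or 3 or without knockout library 3 or 4, and 4 without WT library 4. Dropping knockout library 1 left 8 called, Dnaja1 among them, and dropping knockout library 2 left 7. The log2 fold changes moved less: leaving out 1 library gave 1.28 to 1.75 for Hsp90aa1, 0.88 to 1.13 for Hsp90ab1 and 1.17 to 1.61 for Stip1. Over all genes, 3735 were called, and 431 to 755 in the 5 fits in which none of the 10 passed.

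**Figure D3:**
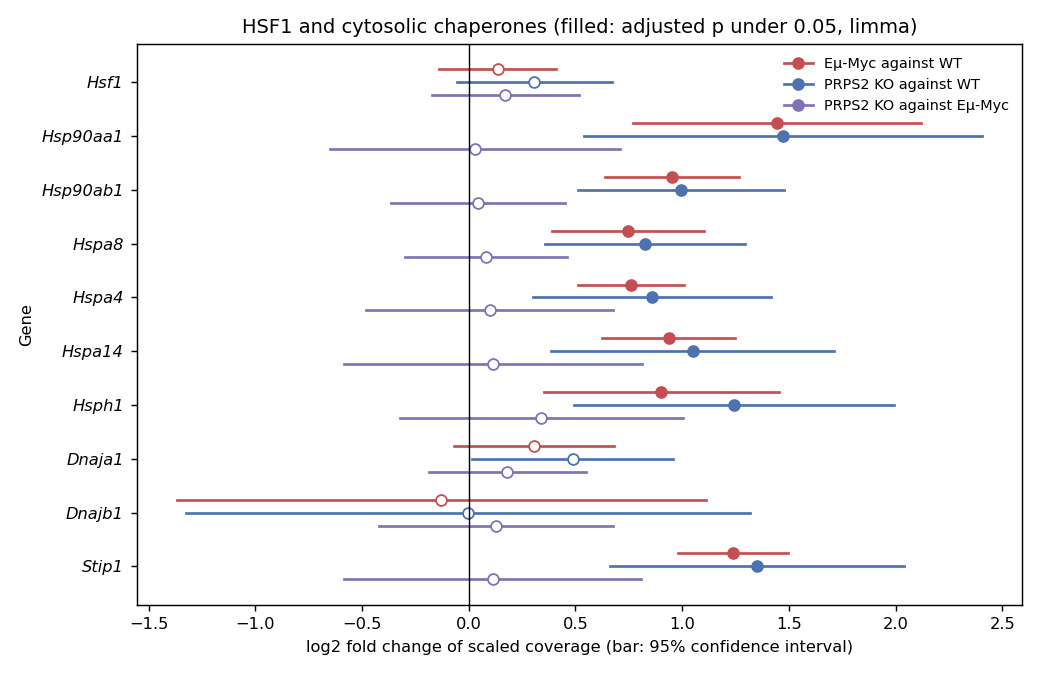
log2 fold change of coverage (horizontal axis) for each gene in the 3 comparisons, with 95% confidence intervals from limma; filled points have an adjusted p under 0.05 over all genes. The 7 filled genes are the same in both comparisons with WT, and all intervals of the knockout against Eμ-Myc cross 0.

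The ratio between 2 genes within a library does not depend on the scaling, and 4 pairs were compared in the 3 comparisons, 12 exact two-sided permutation tests in all, whose smallest possible p is 0.0286. None passed after adjustment, which this design made hard to reach: a single ratio at the smallest p would have an adjusted p of 0.343, and 7 of the 12 would have to reach it. The ratio of the inducible to the constitutive HSP90 gene, Hsp90aa1 to Hsp90ab1, was 0.140 to 0.255 in WT, 0.242 to 0.302 in Eμ-Myc and 0.217 to 0.316 in the knockout, and the Eμ-Myc minus WT difference of its log2 was 0.49 (exact permutation p 0.143, adjusted 0.411). The ratio of Stip1 to Hsp90ab1 was 0.0674 to 0.107 in WT and 0.103 to 0.117 in Eμ-Myc, a log2 difference of 0.29 (exact permutation p 0.0571, adjusted 0.411). Without WT library 4 this difference was 0.15, and leaving out any other library gave 0.26 to 0.37. For Hsp90aa1 to Hsp90ab1, leaving out 1 library gave 0.34 to 0.63. The ratio of the J-domain genes, Dnajb1 to Dnaja1, spread from 0.618 to 2.49 in WT and from 0.626 to 0.913 in Eμ-Myc. That of the HSP110 genes, Hsph1 to Hspa4, spread from 0.483 to 1.15 in WT and from 0.718 to 0.936 in Eμ-Myc.

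**Figure D4:**
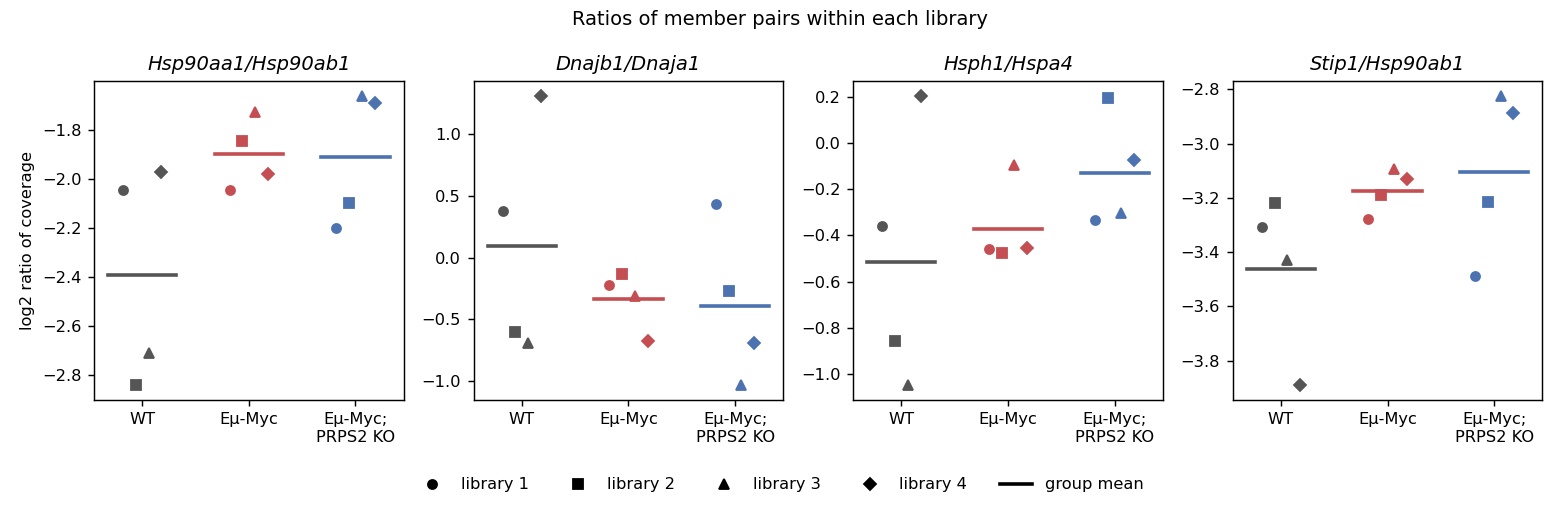
log2 ratio of coverage of 4 gene pairs within each library (points, marker shapes for the library number) with the mean of 4 libraries as a line. WT libraries 1 and 4 lie above WT libraries 2 and 3 for Hsp90aa1/Hsp90ab1, Dnajb1/Dnaja1 and Hsph1/Hspa4, and WT library 4 is the lowest of all for Stip1/Hsp90ab1.

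The genes of proteins that work with HSP90 and HSP70 moved mostly in the same direction as the 10 genes in Eμ-Myc against WT. Over all 12704 genes tested in this comparison, 28.3% were called higher and 55.7% were called in either direction. Of 19 HSP90 co-chaperone genes, 14 rose, 1 fell and 4 did not pass, with a median log2 fold change of 0.69. Fkbp4, an immunophilin of steroid receptor complexes, was 121, 145, 112 and 128 in WT and 306, 411, 404 and 419 in Eμ-Myc (log2 fold change 1.60, adjusted p 1.40e-05). Nudc (1.53, adjusted p 9.10e-06) and Cacybp (1.61, adjusted p 1.95e-05) also rose, and Unc45a, the myosin chaperone, fell by 0.41 on the log2 scale (adjusted p 0.00645). Of 17 HSP70 partner genes, 12 rose, 2 fell and 3 did not pass, against the same shares of all genes, with a median of 0.58. Bag2, which binds HSP70 and inhibits the ubiquitin ligase CHIP, was 3.55, 2.65, 2.60 and 2.85 in WT, 26.7, 30.2, 33.2 and 35.6 in Eμ-Myc and 12.5, 23.3, 65.8 and 66.6 in the knockout. Its log2 fold change in Eμ-Myc against WT was 3.23 (SE 0.16, adjusted p 2.16e-06). Dnajc2, a ribosome-associated J-domain gene, rose (1.14, adjusted p 4.47e-05), and Dnajb2 fell by 1.15 (adjusted p 5.98e-05).

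Chaperones of the mitochondria and the endoplasmic reticulum rose in 8 of 9 genes in Eμ-Myc against WT, with a median of 0.92. Of all 12704 genes tested there, 28.3% were called higher and 55.7% in either direction. Hspd1, the mitochondrial chaperonin HSP60, was 264, 241, 229.7 and 280.4 in WT and 826, 784, 1037 and 986 in Eμ-Myc, a log2 fold change of 1.83 (SE 0.12, adjusted p 5.03e-06). Hspa9, the mitochondrial HSP70, rose by 1.34 (adjusted p 3.41e-05) and Trap1, the mitochondrial HSP90, by 1.26 (adjusted p 1.34e-05). Hspa5, the endoplasmic reticulum HSP70 also called BiP, was the gene not called, with 1041, 849, 767 and 987 in WT and 964, 946, 1061 and 956 in Eμ-Myc (0.12, adjusted p 0.407, and -0.011 when libraries were scaled by their sum of coverage). With quality weights it was 0.29 and called higher (adjusted p 0.0143).

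Of the 14 genes of the heat-inducible list, 11 passed the filter on low coverage, 0 rose and 2 fell, with a median of -0.12. Of all 12704 genes tested in Eμ-Myc against WT, 3591 were called higher and 3481 lower, or 55.7% in either direction. Dnaja4 was 10.8, 6.54, 4.62 and 19.0 in WT and 2.67, 1.58, 2.93 and 2.15 in Eμ-Myc (-1.76, adjusted p 0.00391), and Dnajb5 was 32.8, 38.8, 39.0 and 34.0 and 15.3, 16.9, 11.7 and 11.1 (-1.38, adjusted p 8.83e-05). Both encode J-domain proteins, and their calls held under the 19 alternatives run for Dnajb5 and the 18 for Dnaja4. Hspb1 was called higher with library quality weights (3.59, adjusted p 0.00271), without WT library 1 (3.01, adjusted p 0.0439) and without WT library 4 (3.31, adjusted p 0.0241). With quality weights Hspa1a (5.37, adjusted p 0.00737) and Hspa1b (4.93, adjusted p 0.00782) were called higher too. Of 6 genes in a list of other heat shock factors with Hsbp1 and Hsbp1l1, which are not heat shock factors, 3 passed the filter. None of them was called by limma: Hsf2 (0.28, adjusted p 0.139), Hsf4 (-0.44, adjusted p 0.243) and Hsbp1, whose protein binds and restrains HSF1 (-0.06, adjusted p 0.646). None of the 3 had an unadjusted p under 0.05 either. Hsf2 was called higher with quality weights (0.40, adjusted p 0.0106) and without WT libraries 1 and 4 (0.46, adjusted p 0.0392). In the knockout against Eμ-Myc, with all libraries kept and no weights, 0 genes of each of these 5 lists were called by limma or had an unadjusted p under 0.05. Of Hspa1a, Hspa1b, Hspb1 and Bag3, for which the alternatives were run here, quality weights called the first 2 lower and Hspb1 higher (1.06, adjusted p 0.00174). Leaving out knockout libraries 1 and 2 also called Hspa1a and Hspa1b lower, as given above. In the knockout against WT, where 17.6% of all genes were called higher and 29.4% in either direction, 10 of 19 co-chaperone, 6 of 17 HSP70 partner and 6 of 9 organelle genes rose. Of the same 17 HSP70 partner genes 1 fell, as did 1 of 11 heat-inducible genes, and no other gene of these lists was called. With quality weights Hspa1a (3.50, adjusted p 0.0413), Hspa1b (3.66, adjusted p 0.0257) and Hspb1 (4.53, adjusted p 4.59e-04) were called higher than in WT.

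**Figure D5:**
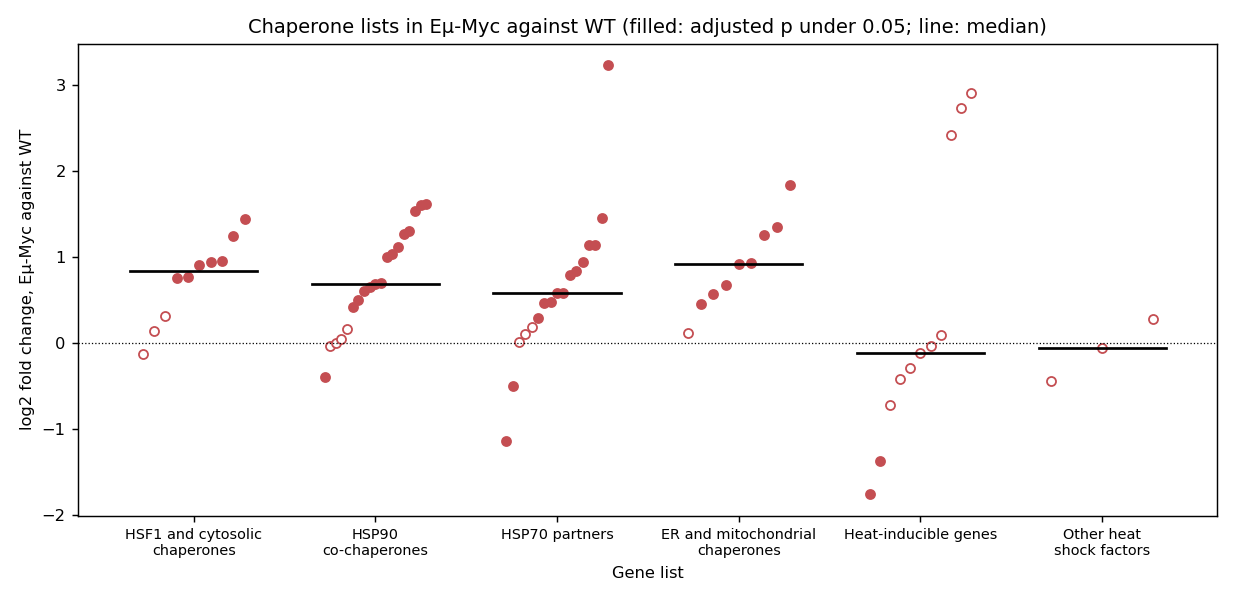
log2 fold change in Eμ-Myc against WT (vertical axis) of each tested gene in 6 lists (horizontal axis); filled points have an adjusted p under 0.05 in limma and lines are list medians. Medians are 0.83, 0.69, 0.58 and 0.92 for the first 4 lists. They are -0.12 for the heat-inducible list and -0.06 for the list labelled other heat shock factors, which includes Hsbp1.

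The genes whose pattern over the 12 libraries was most like that of Hsf1 were Rbm38, Rpusd4, Smg9, Msantd2 and Cars2, with root mean square differences of centred log2 coverage of 0.0578 to 0.0832, among 9641 genes. The nearest of the other 9 genes to Hsf1 was Dnaja1, at rank 616 (0.175), and Hsp90aa1 was at rank 7490 (0.688). The measure takes in the size of a change, and Hsf1 changed little. For Hsp90ab1 the nearest were Rabggtb, Zfp64, Hnrnpa1, Haus3 and Ash2l (0.0898 to 0.104), and Hspa8 was at rank 37 (0.137). Hspa4, Hsph1, Hspa14 and Stip1 followed at ranks 649 to 1251, and Dnajb1 was at rank 7033. All these values come from the same 12 libraries, and likeness over them is a description.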

How the data were processed

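The authors deposited 1 file per library with a coverage value for each of 24982 gene symbols. This signal has 1 decimal, 91.6% of the values above 0 are not whole numbers, and the read depth is unknown. The sum of coverage ran from 1277306 to 1885769 per library, and precision was taken from the spread between libraries. Per the submitters' processing notes, the build was mm10 and DESeq and R 4.3.3 were used, with no role stated. The aligner, the counting step and the annotation are not given in the sources used here. Count models (edgeR, DESeq2) were not used, since most of these values above 0 are not whole numbers.

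Each library was scaled by an unweighted trimmed mean of log ratios to the geometric mean of the 12 libraries, trimming 30% of ratios and 5% of mean values at each end. A gene entered a comparison if 4 or more of its 8 libraries reached a scaled coverage of 1. The linear model of limma 3.58.1 (R 4.3.3; trend and robust options on) was run on log2(scaled coverage + 0.5), with only the 8 libraries compared. Tests were two-sided. A gene was called when its p, adjusted by Benjamini-Hochberg over the whole table, fell under 0.05. The script was tested on simulated data. Python 3.11.15, numpy 2.4.6, pandas 2.3.3 and matplotlib 3.10.9 were used for tables and figures. Positions and promoter windows are from RefSeq on GRCm38.p6, the build named mm10.

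Members, gene lists and tests were chosen with earlier results of these data known. The text names the 10 members, Prps2 and Myc, Hspa1a, Hspa1b, Hspb1 and Bag3, from each other list the 3 smallest adjusted p values and the largest decrease of the Eμ-Myc and WT comparison (where no gene was lower, the lowest log2 fold change), and the 5 genes nearest in pattern to Hsf1 and to Hsp90ab1. Patterns were compared among genes with a mean coverage of at least 8. Same-numbered knockout and Eμ-Myc libraries deviated together from their group means, with correlations across genes of 0.640, 0.189, 0.244 and 0.598. All 4 are over 0.1, although only 4 of 8 libraries correlated best with their own number, so these numbers were treated as pairs in an alternative fit; the pairing comes from the values, not from the labels. The alternatives were median-of-ratios and sum-of-coverage scaling, no filter, at least 10 in every library, pseudocounts of 0.1 and 2, 1 fit of all 12 libraries, library quality weights, a replicate block, leaving out each library, and leaving out knockout libraries 1 and 2 or 3 and 4. Leaving out WT libraries 1 and 4, or 2 and 3, was added after seeing the data. Marker lists of erythroid cells, platelets, plasma cells and stroma summed to 79.2 to 863, 30.9 to 380, 440 to 1094 and 156 to 580 over the 12 libraries.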

Additional observations from a re-analysis of the deposited data

Results flagged for a closer look

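In 6 of 108 groups of 4 libraries, 1 library stood apart from the other 3 by more than Dixon's 95% critical value. Chance gives about 1 in 20 such groups, and all 6 were in Eμ-Myc. Hspb1 was 39.8 in Eμ-Myc library 2, against 14.0 to 17.5 in the other 3. Hsbp1, the gene of an HSF1-binding protein, was also highest in library 2, at 139. Hsf4 was lowest in Eμ-Myc library 4, at 2.26, and Fkbp4 lowest in library 1, at 306. In Eμ-Myc library 3, Hspa5 was 1061 and the ratio of Hsph1 to Hspa4 was 0.936, the highest of the group in each case.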

How the results depend on the processing

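In Eμ-Myc against WT, Hsp90aa1, Hsp90ab1, Hspa8, Hspa4, Hspa14 and Stip1 kept their direction and call under all 19 alternatives, Hsph1 under 18. Scaling by the sum of coverage moved the median of all genes from -0.06 to -0.19 and the share of calls that were higher from 50.8% to 42.0%, and turned Hspa5 to -0.011; without WT libraries 2 and 3 Hspa5 was -0.048, Hspa1a -1.22 and Hspa1b -1.09. Dnajb1 was 0.91 without WT libraries 1 and 4, 0.54 with quality weights, and -0.51 to 0.38 leaving out 1 library, above 0 without WT library 1 or 4 or Eμ-Myc library 4. The cause of these changes was not tested.

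In the knockout against Eμ-Myc, quality weights called 9 of the 10 genes and 7698 of all, and leaving out knockout libraries 1 and 2 called 6 and 3760. Without knockout libraries 3 and 4, 541 genes were called and log2 fold changes turned to -0.025 (Hsf1), -0.50 (Hsp90aa1), -0.25 (Hsp90ab1), -0.16 (Hspa8), -0.34 (Hspa4), -0.42 (Hspa14), -0.035 (Hsph1), -0.43 (Stip1), -0.63 (Hspb1), 0.31 (Hspa1a), 0.30 (Hspa1b). Dnajb1 was -0.070 with quality weights and -0.17 without knockout libraries 1 and 2. Leaving out 1 library gave -0.16 to 0.25 (Hsp90aa1), -0.070 to 0.17 (Hsp90ab1), -0.013 to 0.20 (Hspa8), -0.053 to 0.29 (Hspa4), -0.068 to 0.33 (Hspa14), -0.020 to 0.29 (Dnajb1), -0.072 to 0.37 (Stip1) and -0.14 to 0.45 (Hspb1). The replicate block of paired libraries called 0 of the 10 genes and 1 gene in all, as without it.

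In the knockout against WT, leaving out 1 library called 0 to 8 of the 10 genes and 431 to 6667 of all. The replicate block called 3 (Hsp90aa1, Hsp90ab1 and Hsph1) and 1591. Here same-numbered libraries correlated at 0.390, -0.410, 0.135 and -0.0628, and 2 of 8 libraries correlated best with their own number. The labels do not say whether the libraries were paired, and these values cannot settle it. For Eμ-Myc against WT the correlations were 0.224, -0.0987, 0.249 and 0.127, 4 of 8 libraries matched best, and the block called the same 7. One fit of all 12 libraries called 8 members and 6022 genes, and quality weights 9 and 10533. Leaving out knockout libraries 1 and 2 called 9 members, with Hsf1 and Dnaja1 added, and 8622 genes, and leaving out 3 and 4 called 1 member (Stip1) and 1368 genes. Without WT libraries 1 and 4 there were 0 members and 3 genes, and without WT libraries 2 and 3 there were 0 members and 2 genes. Dnajb1 was 0.40 with quality weights, 0.30 without knockout libraries 3 and 4, 1.03 without WT libraries 1 and 4, and -0.38 to 0.51 leaving out 1 library. Without WT libraries 2 and 3, Hspa1a was -1.96 and Hspa1b -1.60.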

Other observations

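One gene outside the rule for named genes is given here, chosen after its values were seen. Hspa2, an HSP70 gene best known from testis, was 15.2, 19.2, 15.9 and 10.7 in WT libraries 1 to 4, 38.7, 36.3, 44.1 and 48.5 in Eμ-Myc and 22.3, 33.3, 59.6 and 60.7 in the knockout. Every Eμ-Myc library was above every WT library, with a log2 fold change of 1.45 (SE 0.18, adjusted p 1.54e-04) in limma.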
